A study of Mus musculus with 6 samples.

Results

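Hedgehog signalling was examined through 9 genes: Shh, Ptch1, Smo, Sufu, Gli1, Gli2, Gli3, Hhip and Gas1. They were found by name in the deposited RNA-seq table, which has 23235 entries, and each of the 9 matched 1 entry. The RNA came from the mouse embryonic stem cell line E14Tg2a at passages 37 to 40. Pluripotent ESCs were kept with Leukemia Inhibitory Factor (LIF), which holds ESCs in self-renewal. RA-induced neuronal cells (NCs) were monolayers of the same line without LIF, treated with 1 μM retinoic acid (RA) for 48 h. Each condition had 3 samples of the 1 cell line, and each RNA sample was drawn from plates of a culture. The table holds 1 pooled FPKM value (fragments scaled to transcript length and to the mapped fragments of a library) per gene and condition, with no value per replicate. No SD, n or test therefore accompanies any value here, and the test columns of the submitters' own comparison were not used.

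Hedgehog ligands bind the receptor Patched (Ptch1), which in their absence holds back Smoothened (Smo). Once released, Smoothened acts at the primary cilium to free the GLI transcription factors from Sufu and from processing into repressors. Gli2 is the main activator, Gli3 is mostly a repressor, and Gli1 is an activator that is itself a target. In the neural tube, Sonic hedgehog (Shh) from the notochord and floor plate patterns the ventral side, while RA acts along the neural plate. Ptch1, Gli1 and Hhip are widely used as readouts of the pathway because their transcription follows it.

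A gene was called higher or lower in NCs when its FPKM differed at least 2-fold and reached 1 FPKM in the higher condition. Of the 13293 entries that reached 1 FPKM in either condition, 12.5% were called higher in NCs and 10.6% lower, and their median log2 ratio of NC over ESC was -0.03. Higher calls made up 54.0% of all calls. The FPKM values summed to 770592 in ESCs and 628679 in NCs. When both sums were made equal, every log2 ratio moved up by 0.29 and higher calls made up 70.6% of all calls. All 8 ESC markers were called lower and all 7 RA response genes higher in NCs. The summed FPKM of the ESC markers was 2177 in ESCs and 84.7 in NCs, and that of the RA response genes was 10.6 and 867. Of the 8 neural progenitor markers, 5 were called higher and 1, Fabp7, lower. Of 6 neuron markers, 3 (Tubb3, Stmn2 and Elavl3) were called lower and none higher, against the name of the NCs. Map2 and Rbfox3 were within the limit. Dcx, under 1 FPKM in both conditions, had 0.0140 FPKM in ESCs and 0.334 in NCs. The summed FPKM of the 6 was 185 in ESCs and 23.5 in NCs, of which Stmn2 alone had 142 and 11.8. Of 5 trophoblast markers, Krt8 and Krt18, which other epithelia also express, were called higher, and the sum was 77.2 and 168 FPKM. Krt18 (45.7 and 103 FPKM) and Krt8 (30.5 and 64.2 FPKM) made up nearly all of that sum. Cdx2, Elf5 and Hand1 stayed under 1 FPKM in both conditions, and Hand1 had 0.655 FPKM in ESCs and 0.449 in NCs. RNA of a whole culture cannot tell fewer expressing cells from less RNA per cell.

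Of the 9 genes, 7 reached 1 FPKM, and all 7 did so in both conditions. Gas1, Smo and Gli3 were called higher in NCs, 3 of 7 (42.9%) against the 12.5% of all entries. None of the 7 was called lower, against 10.6% of all entries. Of all entries with at least 1 FPKM in both conditions, 7.45% were called higher and 7.89% lower. Ptch1, Sufu, Gli1 and Gli2 were within the 2-fold limit. Shh and Hhip stayed under 1 FPKM in both conditions and were not counted. The median log2 ratio of the 7 counted genes was 0.89.

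**Figure D1:**
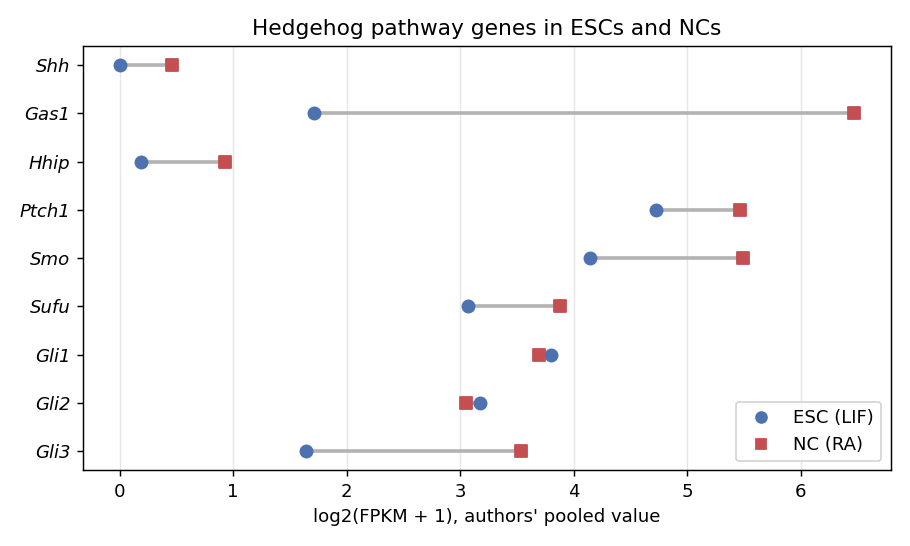
Deposited FPKM of the 9 genes on a log2(FPKM + 1) axis, with 1 pooled value for ESCs (circles) and 1 for NCs (squares) joined by a line. Gas1, at 2.27 FPKM in ESCs and 87.4 in NCs, has the longest line, while the Gli1 and Gli2 points almost coincide.

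The ligand gene Shh (chromosome 5, 28456815 to 28467256, minus strand) was listed at 0 FPKM in ESCs and at 0.374 FPKM in NCs. No fold change is given against a value of 0. In the single annotated Shh transcript, of 2847 bases, 1 fragment was worth about 0.00538 FPKM in NCs, so the NC value corresponds to about 69 fragments, or to about 136 with the smaller size that was most common in NCs. The size comes from low values of single-transcript genes and covers counting error only. Shh transcript was therefore listed in NCs at a low level, with 38.6% of all entries at or below it. The other ligand genes were also under 1 FPKM in both conditions. Ihh had 0.147 FPKM in ESCs and 0.275 in NCs. Dhh was the highest of the ligand genes, with 0.271 and 0.529 FPKM. All 3 ligand genes thus had the higher value in NCs and none passed the filter on low values. Exons of Shh share 446 bases (15.7% of its exon bases) with the antisense gene 9530036O11Rik, which had 0.00504 FPKM in ESCs and 0.0115 in NCs.

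Gas1 (chromosome 13, 60174405 to 60177365, minus strand) encodes a GPI-anchored protein that binds Shh and acts as a co-receptor with Patched. It had 2.27 FPKM in ESCs and 87.4 in NCs, a 38.4-fold higher value in NCs. It was the gene of the 9 with the largest ratio, and 0.940% of all counted entries had a larger one. In ESCs it was the sixth of the 9 genes by FPKM and in NCs the first. In ESCs Gas1 stood at 0.0893 times Ptch1, and in NCs at 2.03 times Ptch1. FPKM is scaled to transcript length, so such ratios between genes are of transcripts.

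Hhip (chromosome 8, 79965851 to 80058006, minus strand) encodes a membrane protein that binds and sequesters Hedgehog ligands. Its FPKM was 0.141 in ESCs and 0.905 in NCs, a 6.41-fold higher value that did not reach the 1 FPKM limit. With a limit of 0.5 FPKM it was called higher. With a pseudocount of 1 its log2 ratio went from 2.68 to 0.74. The ESC value corresponds to about 91 fragments and the NC value to about 564, or 1108 with the smaller size, in its transcript of 9074 bases.

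Ptch1 (chromosome 13, 63508328 to 63573598, minus strand), the receptor, had 25.5 FPKM in ESCs, the highest value of the 9 genes there. In NCs it had 43.0 FPKM, 1.69-fold more, a log2 ratio of 0.76 within the 2-fold limit. Smo (chromosome 6, 29735503 to 29761365, plus strand), the transducer that Ptch1 holds back, had 16.7 FPKM in ESCs and 43.9 in NCs, a 2.62-fold higher value. Ptch1 stood at 1.52 times Smo in ESCs and at 0.979 times Smo in NCs. Both genes were therefore expressed in both conditions at levels above those of the Gli genes. Without replicate values, the order of Ptch1 and Smo in NCs cannot be set against an error.

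Sufu (chromosome 19, 46396896 to 46488804, plus strand) encodes the protein that holds GLI factors in the cytoplasm. It had 7.39 FPKM in ESCs and 13.7 in NCs, 1.85-fold more and within the limit. Sufu and Ptch1 were the genes whose calls turned on scaling: with equal FPKM sums their log2 ratios were 1.18 and 1.05 and both were called higher.

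The 3 Gli genes did not move together. Gli3 (chromosome 13, 15463235 to 15730026, plus strand) had 2.11 FPKM in ESCs and 10.6 in NCs, a 5.05-fold higher value with a log2 ratio of 2.34. Gli1 (chromosome 10, 127329882 to 127341974, minus strand) had 12.9 FPKM in ESCs and 11.9 in NCs. Gli2 (chromosome 1, 118834132 to 119053619, minus strand) had 8.05 FPKM in ESCs and 7.26 in NCs. The log2 ratios of Gli1 and Gli2, -0.12 and -0.15, were close to the median of all counted entries, -0.03, and turned to 0.17 and 0.14 with equal FPKM sums. No direction is therefore given for either. Gli3 stayed more than 2-fold higher under each scaling, with log2 ratios from 2.34 to 2.63.

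The make-up of the Gli transcripts differed accordingly. The summed FPKM of the 3 genes was 23.1 in ESCs and 29.8 in NCs. Gli3 made up 9.15% of that sum in ESCs and 35.8% in NCs. Gli1 made up 55.9% in ESCs and 39.8% in NCs, and Gli2 made up 34.9% and 24.4%. Gli1 stood at 1.60 times Gli2 in ESCs and at 1.63 times Gli2 in NCs, so the ratio between these genes hardly differed. Gli3 stood at 0.262 times Gli2 in ESCs and at 1.47 times Gli2 in NCs. These shares compare genes within a condition and do not depend on the scaling between conditions. They count transcripts, and the table does not tell full-length GLI3 from the processed repressor, which differ only as proteins.

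**Figure D2:**
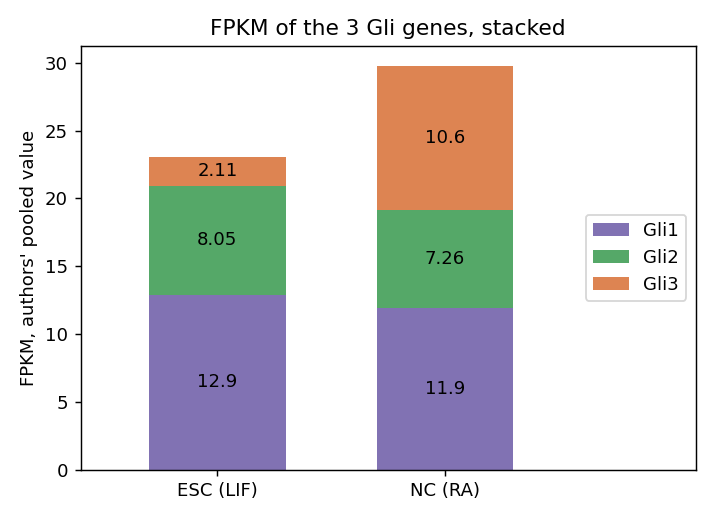
Deposited FPKM of Gli1, Gli2 and Gli3 stacked for ESCs and NCs, with 1 pooled value per gene and condition and a linear axis from 0. The Gli3 segment grows from 2.11 to 10.6 FPKM while the Gli1 and Gli2 segments keep nearly the same height.

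The whole set ordered differently in each condition. In ESCs the order from the highest FPKM was Ptch1, Smo, Gli1, Gli2, Sufu, Gas1, Gli3, Hhip and Shh. In NCs it was Gas1, Smo, Ptch1, Sufu, Gli1, Gli3, Gli2, Hhip and Shh. Neighbours with close values were Gas1 and Gli3 in ESCs (2.27 and 2.11 FPKM), Gli2 and Sufu in ESCs (8.05 and 7.39 FPKM) and Smo and Ptch1 in NCs (43.9 and 43.0 FPKM). Whether these neighbours differ beyond the spread between samples cannot be said from pooled values. Ptch1 stood at 1.97 times Gli1 in ESCs and at 3.62 times Gli1 in NCs. The 3 genes used as pathway readouts thus had unlike ratios of NC to ESC: 1.69 times for Ptch1, a 1.09-fold lower value in NCs for Gli1 as deposited, which turned higher with equal FPKM sums, and a 6.41-fold higher one for Hhip at under 1 FPKM.

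**Figure D3:**
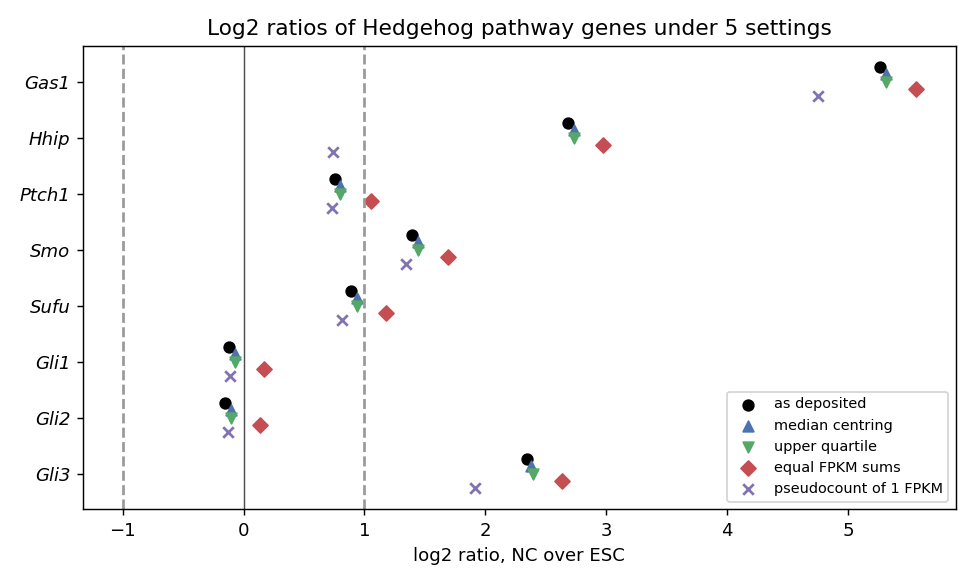
Log2 ratios of NC over ESC for the 8 genes with a value above 0 in both conditions, as deposited and under 4 other settings marked by symbol, with dashed lines at 2-fold. Gas1, Smo and Gli3 lie beyond the line in every setting shown, Ptch1 and Sufu cross it with equal FPKM sums, and Gli1 and Gli2 lie on either side of 0.

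Promoters are shown for Gas1, which had the largest ratio, and for Gli3 and Gli2, a pair of related factors of which only Gli3 was called. They were chosen after their values were seen. The sequences are the 250 bases before the RefSeq transcription start on GRCm38.p6, read 5′ to 3′ on the strand of the gene. The intervals are chr13:60177536-60177785 (minus strand) for Gas1, chr13:15463473-15463722 (plus strand) for Gli3 and chr1:119053620-119053869 (minus strand) for Gli2. The annotations place some starts differently. The RefSeq start of Gli3 lies 488 bases inside the gene as GENCODE places it, so the Gli3 stretch is within that gene, and the Gas1 start lies 170 bases outside, while the Gli2 starts are the same. Capitals mark GC boxes (GGGCGG on either strand) and the CCAAT box (CCAAT on either strand).
Gas1: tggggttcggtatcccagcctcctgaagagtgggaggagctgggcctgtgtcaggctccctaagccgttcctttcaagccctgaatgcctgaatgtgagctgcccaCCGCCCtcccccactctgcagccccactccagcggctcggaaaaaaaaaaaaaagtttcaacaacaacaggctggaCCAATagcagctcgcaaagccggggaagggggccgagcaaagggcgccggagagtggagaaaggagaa
Gli3: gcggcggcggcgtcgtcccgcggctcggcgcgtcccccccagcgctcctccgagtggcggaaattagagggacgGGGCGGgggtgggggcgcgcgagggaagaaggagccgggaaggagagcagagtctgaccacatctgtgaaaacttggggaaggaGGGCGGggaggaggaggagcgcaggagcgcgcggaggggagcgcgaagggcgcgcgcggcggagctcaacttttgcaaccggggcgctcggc
Gli2: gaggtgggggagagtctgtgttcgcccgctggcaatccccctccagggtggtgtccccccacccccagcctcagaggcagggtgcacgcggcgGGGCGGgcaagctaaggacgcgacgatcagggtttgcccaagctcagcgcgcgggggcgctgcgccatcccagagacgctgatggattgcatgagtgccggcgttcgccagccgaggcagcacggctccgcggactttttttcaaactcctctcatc

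A RefSeq promoter window was at hand for 7 of the 9 genes, all but Shh and Gli1. The Ptch1 window belongs to a start 7863 bases inside the GENCODE gene. Over 250 bases before the start, a GC box was found in 6 of these 7 promoters and in 32.7% of all 32851 windows. Gas1 held 1 GC box and 1 CCAAT box, Gli3 held 2 GC boxes and Gli2 held 1. CCAAT was found in Gas1 and Sufu and in 33.8% of all windows. CG dinucleotides numbered 10 in Gas1, 34 in Gli3 and 22 in Gli2. The GLI motif TGGGTGGTC was found in none of the 7 whole windows, which run on for 50 bases after the start, and in 0.253% of all windows. Its core GGGTGGTC, contained in it, was found in none of the 7 and in 0.807% of all. The half-site AGGTCA of RA response elements was in none of the 7 and in 16.3% of all, and it follows that its direct repeats were in none either. With AGGTCA repeated after a spacer of any 1 base (DR1), the repeat was found in 0.0396% of all windows. With spacers of any 2 (DR2) and any 5 bases (DR5) it was found in 0.00913% each. All motifs were searched on both strands, and these letters say nothing about binding outside the windows.

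Other genes were taken from lists by role. The lists hold components of the pathway, its targets with ventral neural tube genes, and dorsal genes that it holds back. Of 126 listed genes other than the 9, 112 were counted, of which 37 (33.0%) were called higher and 5 (4.46%) lower in NCs, against 12.5% and 10.6% of all entries. Many of them passed the filter through NCs alone: 89 had at least 1 FPKM in both conditions, and of these 15 (16.9%) were called higher and 5 (5.62%) lower, against 7.45% and 7.89% of all entries of that kind. The higher calls were spread unevenly over the roles, and many were not of pathway components. The list of targets and ventral genes held 12 of them. The dorsal list held 12 higher calls, among them Gas1 of the 9 genes and the co-receptors Boc and Cdon.

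Several co-receptors were higher in NCs. Boc (chromosome 16, 44485049 to 44558897), an immunoglobulin-type co-receptor of Shh, had 1.58 FPKM in ESCs and 9.76 in NCs, 6.18-fold more. Its relative Cdon (chromosome 9, 35421128 to 35507652) had 4.67 and 19.6 FPKM, 4.19-fold more in NCs. With Gas1, 3 co-receptors of Shh were thus called higher in NCs, while Lrp2, an endocytic receptor that also binds Shh, had 6.93 and 11.2 FPKM, within the limit. The glypican Gpc3, a cell surface proteoglycan that competes with Patched for ligand, was the highest gene of this list, with 52.6 FPKM in ESCs and 245 in NCs, and Gpc6 was called higher with 0.627 and 5.19 FPKM. Of the 11 receptor and binding genes, 9 were counted, with a median log2 ratio of 2.07. Of these, 5 were called higher and none lower, against 12.5% and 10.6% of all counted entries. Among the 5 was Gas1, and Gpc6 passed the filter through NCs alone. Of the 8 with at least 1 FPKM in both conditions, 4 were called higher, against 7.45% of all entries of that kind. The median log2 ratio of the 8 was 1.41.

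Of 7 genes for ligand processing and release, 4 passed 1 FPKM and were called higher, against 12.5% of all counted entries. Hhat and Scube1 passed through NCs alone, and Disp1 and Scube3 had at least 1 FPKM in both conditions, with a median log2 ratio of 1.48. Hhat, which attaches palmitate to the ligand, had 0.651 FPKM in ESCs and 1.68 in NCs. Disp1, which releases the lipid-modified ligand, had 2.21 and 4.97 FPKM, and the secreted carriers Scube1 and Scube3 were 6.32-fold and 3.44-fold higher in NCs. Scube3 was the highest gene of the list, at 16.6 FPKM in NCs.

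Downstream of the receptor most genes were within the limit. All 14 genes of Smo transduction in the table reached 1 FPKM in both conditions, with a median log2 ratio of 0.12. Of them, 3 were called higher and none lower, against 7.45% and 7.89% of all entries of that kind. Beside Smo these were Gpr161, a ciliary receptor that keeps the pathway off (1.52 FPKM in ESCs and 4.08 in NCs), and Efcab7, at a ratio of 2.01 just past the limit. Csnk1a1, a kinase that phosphorylates Smo and GLI factors, was the highest of the list, with 189.6 FPKM in ESCs and 134 in NCs. Of 25 regulators of GLI factors, 22 were within the limit. Ski, a corepressor, was 2.17-fold higher in NCs. Zic1 (chromosome 9, 91358058 to 91365810), a zinc finger factor related to GLI, had 0.0717 FPKM in ESCs and 4.68 in NCs. The highest gene of that list was Hdac1, with 139 FPKM in ESCs and 170.4 in NCs. Of the Glis genes, relatives of Gli, Glis2 was called higher, with 9.11 and 27.4 FPKM. Glis1 (0.309 and 1.15 FPKM) and Glis3 (0.686 and 2.20 FPKM) were also called higher but passed the filter through NCs alone. Of the 4 Gli and Glis genes with at least 1 FPKM in both conditions, 2 were called higher, against 7.45% of all such entries. The median log2 ratio of the 4 was 0.73.

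The primary cilium list was the flattest. Of 32 genes for ciliary transport and the transition zone, all counted, 29 were within the limit and the median log2 ratio was 0.08. Mks1 was 2.17-fold lower and Wdr35 2.01-fold lower in NCs, and Dync2h1, a dynein motor of retrograde transport, was 2.19-fold higher. Ift20 was the highest of the list, with 49.2 FPKM in ESCs and 47.4 in NCs. Wdr35 lay so near the limit that it was within it after centring on the median log2 ratio.

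**Figure D4:**
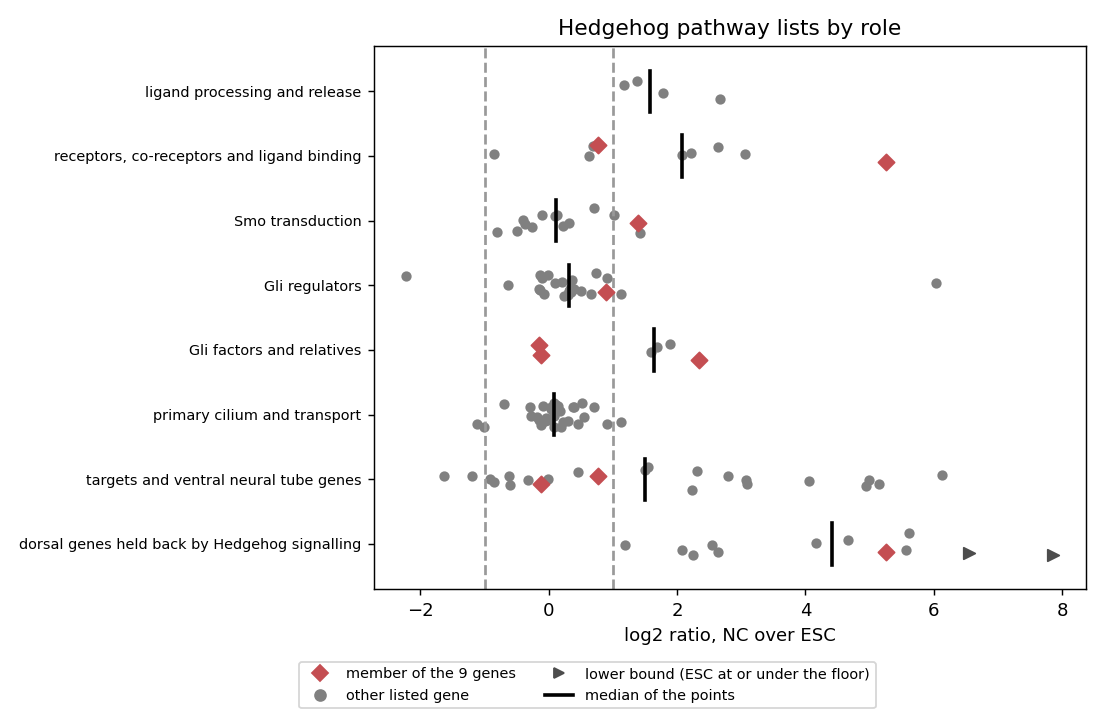
Log2 ratios of NC over ESC for the counted genes of 8 lists by role, with dashed lines at 2-fold. Each point is a gene of a list, and a gene in more than 1 list is drawn in each. Diamonds are the 7 counted genes of the 9 described here, without Shh and Hhip. Triangles mark Dbx1 and Wnt1 at their lower bound. The 32 cilium genes crowd around a median of 0.08, while the dorsal list has a median of 4.41. Of the cilium genes 31 reached 1 FPKM in both conditions, whereas 8 of the 12 dorsal points passed the filter through NCs alone. Over the other 4 dorsal points, among them Gas1, Boc and Cdon of the receptor list, the median was 3.40.

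Genes that Hedgehog signalling is known to turn on differed among themselves. Of 30 such genes and ventral neural tube genes in the table, among them Ptch1, Gli1 and Hhip, 23 were counted. Of these, 12 were called higher and 2 lower, against 12.5% and 10.6% of all counted entries. But 7 of the 23 were under 1 FPKM in ESCs and passed the filter through NCs alone. Among the listed genes that mark ventral neural progenitors, Olig2, which marks motor neuron progenitors, had 0.0403 FPKM in ESCs and 0.0350 in NCs. Nkx2-2 had 0.0610 and 0.0307 FPKM, Nkx6-1 had 0.0776 and 0.0696 FPKM, and Nkx2-1 had 0.0498 and 0.118 FPKM. These 4 genes were therefore near 0 in both conditions. Nkx6-2 was expressed at 3.84 FPKM in ESCs and 3.80 in NCs. Nkx2-9, another ventral homeobox gene, was 4.95-fold higher in NCs, at 4.65 FPKM. Ntn1, which encodes the floor plate guidance cue netrin, was 2.82-fold higher, at 10.1 FPKM in NCs.

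Foxa2 (chromosome 2, 148042877 to 148046969), a floor plate and endoderm factor, had 0.617 FPKM in ESCs and 5.24 in NCs, and Foxa1 had 0.227 and 8.02 FPKM. Of 8 endoderm markers, 5 were called higher, against 12.5% of all counted entries: Sox17, Gata6, Sox7, Cubn and Foxa2 itself. Sox7 and Cubn, at 2.06-fold and 2.03-fold, were just past the limit. Sox17, Sox7 and Foxa2 passed the filter through NCs alone. Gata4 was within the limit, with 3.30 FPKM in ESCs and 3.69 in NCs. The summed FPKM of the 8 was 10.1 in ESCs and 24.7 in NCs. Afp and Ttr, which define visceral endoderm, had 0.0871 and 0.526 FPKM in NCs, and no gene of the list was at 0. Of 5 notochord and floor plate markers, 1, Foxa2, was called higher, and the summed FPKM was 1.26 in ESCs and 5.96 in NCs. T, a notochord and mesoderm factor, had 0.628 FPKM in ESCs and 0.299 in NCs, and Noto, at 0.0153 FPKM in NCs, was under the size of 3 fragments. The part of endoderm or floor plate cells in the values of Foxa1, Foxa2 and Shh was not tested.

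Of the cell cycle and growth genes in the same list, Ccnd2 (chromosome 6, 127125162 to 127152193), a D-type cyclin, had 1.67 FPKM in ESCs and 51.5 in NCs, 30.8-fold more. Ccnd1 had 15.2 and 12.1 FPKM and Mycn 73.6 and 38.9 FPKM, both within the limit. Igf2 was 6.98-fold, Bmi1 8.44-fold and Bcl2 2.90-fold higher in NCs. Foxf1, Foxc2, Hand2 and Snai1, factors of mesenchymal tissues, were called higher, and all but Snai1 passed the filter through NCs alone. Foxf1 had 0.0751 FPKM in ESCs and 2.38 in NCs, Foxc2 0.189 and 3.16 FPKM, Hand2 0.0447 and 3.11 FPKM, and Snai1 2.20 and 10.4 FPKM. Foxf2 and Foxl1, at 0.273 and 0.119 FPKM in NCs, were not counted. Of the 6 mesoderm markers, none reached 1 FPKM in either condition, and their summed FPKM was 2.22 in ESCs and 2.17 in NCs. The genes called lower were Spp1, the highest of the list in ESCs at 152 FPKM and 3.13-fold lower in NCs, and Prdm1, 2.28-fold lower. Of the 23 counted genes, 7 were under 1 FPKM in ESCs. The median log2 ratio of the other 16, all with at least 1 FPKM in both conditions, was -0.07. Of these 16, 5 were called higher and 2 lower, against 7.45% and 7.89% of all entries of that kind.

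Genes of dorsal and intermediate neural tube domains, which Hedgehog signalling is known to hold back, were called higher in NCs wherever they were counted. Of 14 genes, 12 were counted and called higher, against 12.5% of all counted entries. But 8 of the 12 were under 1 FPKM in ESCs and passed the filter through NCs alone, which favours a higher call. The other 4 reached 1 FPKM in both conditions and were also called higher, against 7.45% of all entries of that kind. Of these, only Pax6 is a gene of a neural tube domain. The others are the co-receptors Gas1, Boc and Cdon, whose transcription Shh reduces and which are also in the receptor list. The lists were chosen with earlier results of these data known, so these counts are descriptive only. Pax6, a neural progenitor factor, had 3.64 FPKM in ESCs and 65.2 in NCs, and Irx3 had 0.835 and 39.4 FPKM. Msx1 was 49.3-fold, Msx2 5.84-fold, Pax3 25.3-fold, Gdf7 4.77-fold and Dbx2 2.28-fold higher in NCs. Dbx1 and Wnt1 had 5.08 and 1.77 FPKM in NCs, with ESC values of 0.00733 and 0.00633 FPKM, under the size of 3 fragments in their transcripts. Pax7 and Wnt3a stayed under 1 FPKM. The median log2 ratio of the 12 counted genes was 4.41, also with Dbx1 and Wnt1 at their bound, and of the 4 with at least 1 FPKM in both conditions, Gas1, Boc, Cdon and Pax6, it was 3.40.

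**Figure D5:**
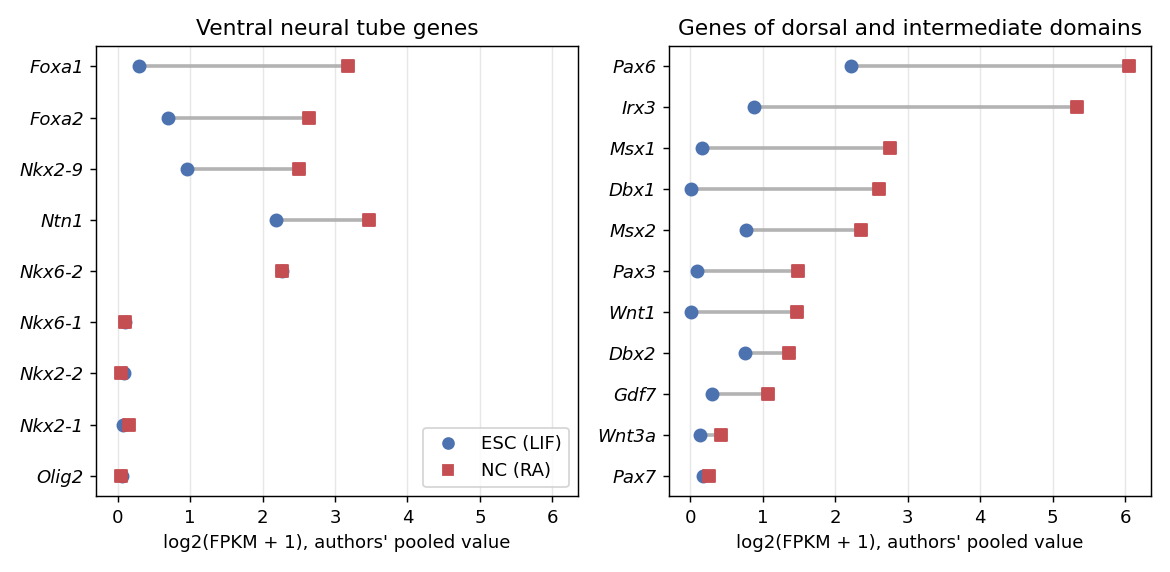
Deposited FPKM on a log2(FPKM + 1) axis for 9 ventral neural tube genes (left) and 11 genes of dorsal and intermediate domains (right), with circles for ESCs and squares for NCs. Olig2, Nkx2-2, Nkx6-1 and Nkx2-1 lie near 0 in both conditions, whereas Pax6 and Irx3 reach 65.2 and 39.4 FPKM in NCs.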

How the data were processed

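RNA-seq libraries (TruSeq RNA kit, total RNA) were made from 3 ESC and 3 NC samples. Per the submitters' processing notes the authors used Bowtie2 (2.1.0) and TopHat2 (2.0.8) with mm10, Cufflinks (2.0.2) and Cuffdiff. The authors deposited FPKM values, 1 pooled value per gene and condition. The NC heading reads FPK and was taken as FPKM. The columns of their own comparison (fold change, test statistic, p-value, q-value, status) were not used. Depth per sample is unknown.

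The log2 ratio of NC over ESC was computed without a pseudocount. A call needed a 2-fold difference and 1 FPKM in the higher condition, with no test. Genes were named when they belong to the 9, were called or led a list, belong to a marker list, or were nearest to a member. The others (Ihh, Lrp2, Olig2, the Nkx2 and Nkx6 genes not called, Ccnd1, Mycn, Foxf2, Foxl1, Pax7, Wnt3a and the genes with overlapping exons) were chosen after their values were seen. The 9 genes and the lists were chosen with earlier results of these data known. The size of 1 fragment was taken from FPKM times transcript length less 200 bases in genes with a single GENCODE M21 transcript (GRCm38, the assembly of mm10), where it was 0.01375 FPKM per kilobase in ESCs and 0.01425 in NCs. In NCs a smaller size, 0.00725, was the most common one. The floor was 3 fragments. GENCODE gave the positions and RefSeq (GRCm38.p6) the promoters. The call rule was run on simulated data with planted differences, which checks its arithmetic only and says nothing about the error of pooled values. Alternatives were pseudocounts, scalings, filters, fold limits and summing rows that share a name. GC and CCAAT boxes, the fragment size and equal sums without the 10 highest entries were chosen after seeing the data. A comparison of GLI protein sequences was not run. Some listed genes are counted but not reported here by name. Python 3.11.15, numpy 2.4.6, pandas 2.3.3 and matplotlib 3.10.9 were used.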

Additional observations from a re-analysis of the deposited data

How the results depend on the processing

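No paired analysis was possible because the table holds 1 pooled value per condition, and for the same reason no replicate could be left out. Of the 9 genes, 5 were called higher with equal FPKM sums, with equal sums after leaving out the 10 highest entries of each condition (chosen after seeing the data), and at 1.5-fold. Ptch1 and Sufu were added each time. None was called lower under any alternative. Gli1 turned to a log2 ratio of 0.17 and Gli2 to 0.14 with equal sums, and to 0.16 and 0.13 without the 10 highest entries. The other listed genes called higher numbered 15 with at least 1 FPKM in both conditions and 24 at 4-fold. Those called lower numbered 3 with a pseudocount of 1, 2 under both equal-sum scalings, 12 at 1.5-fold and 1 at 4-fold. Of all entries, 1074 were called higher with a pseudocount of 1. Without a filter 2947 were called higher and 2403 lower, with at least 1 FPKM in both conditions 873 and 924, at 1.5-fold 2741 and 2573, and at 4-fold 679 and 488. The other 53 recomputed counts stayed within 1.5 times their value. Pooled values give no error, and values under the floor give no fold change.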

Other observations

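For each of the 7 counted genes, the entry with the nearest pair of values was found by the distance between log2(FPKM + 1) values. With 2 conditions this likeness rests on 2 points, 1 pooled value each, and many entries lie close by. Gas1 stood most apart: its nearest entry was Pax6, with 3.64 FPKM in ESCs and 65.2 in NCs, at a distance of 0.654. The nearest entry to Gli3 was Snai1 (2.20 and 10.4 FPKM) at a distance of 0.0555, and the nearest to Smo was Commd3 (16.7 and 45.3 FPKM) at 0.0453. Ptch1 lay nearest to Ube2d1 (0.0171), Sufu to Bcl9 (0.0182), Gli1 to March2 (0.0287) and Gli2 to Mtmr6 (0.0141).

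Strand was not stated for the libraries, so reads of overlapping antisense genes cannot be told apart where exons overlap. Gas1 shares 589 exon bases (19.9%) with Gm48488 on the opposite strand. Gli1 shares 265 bases (5.31%) with Gm47200 and 62 bases with Arhgap9, which had 2.28 FPKM in ESCs and 2.33 in NCs. Hhip and Gli3 share 1.93% and 1.96% of their exon bases with other genes.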
